A study of Homo sapiens with 18 samples.

Results

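Of the 23106 genes counted in HKC-8, RCC4 and HepG2 cells, 7 were taken from the bottom of the ranking of 1 cell line each. These were GPR56, SLC34A2 and CILP in RCC4 cells, S1PR1, KLHL4 and RNF145 in HKC-8 cells, and ALDH1B1 in HepG2 cells. The ranking orders genes by the log2 fold change in hypoxia multiplied by the -log10 of its p-value, so its bottom holds genes that fell by much and with little spread. Each gene was therefore chosen on its fall in 1 line, which is given below as a description, and it was tested in the other 2 lines. The comparison asks whether the fall was shared between lines, and how it lay beside the level of the gene in normoxia.

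PolyA+ RNA was sequenced in 18 samples, with 3 normoxic and 3 hypoxic samples of each line. HKC-8 is labelled a kidney proximal tubule line, RCC4 a kidney cancer line and HepG2 a liver cancer line. All were grown in the same medium with serum. The RCC4 cells are labelled RCC4+VHL in both oxygen conditions, and VHL is the subunit of a ubiquitin ligase that marks the alpha subunits of hypoxia-inducible factor (HIF) for breakdown when oxygen is present. Hypoxia is labelled 0.5% oxygen for 16 h in HKC-8 and HepG2 cells and 1% for 24 h in RCC4 cells, although sample titles for HKC-8 name 0.1%. The text of the study gives RCC4 cells the same exposure as the other lines, so the RCC4 exposure is uncertain. By the labels, line and exposure cannot be told apart where RCC4 cells are compared with another line. Each model is 1 established line, and the labels do not say whether replicates came from separate cultures, so p-values measure the spread between these samples. The total count per sample ran from 40915980 to 51794355 in RCC4 and HepG2 cells and from 75441764 to 97984260 in HKC-8 cells, whose libraries were split over lanes.

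The lines carried the markers of their labels in part. All 9 hepatocyte markers lay above 3 counts in every HepG2 sample, with a summed level of 35330 to 45920 CPM (counts scaled by the effective library total), while the sum was 0.264 to 0.552 CPM in HKC-8 and 8.83 to 11.2 CPM in RCC4 cells. Of 12 tubule markers, 10 lay above 3 counts in every RCC4 sample, 7 in every HKC-8 sample, where PAX2, LRP2, CUBN, AQP1 and SLC5A2 did not, and 7 in every HepG2 sample. Their summed level was 1158 to 1383 CPM in HKC-8, 1182 to 1558 CPM in RCC4 and 1183 to 1718 CPM in HepG2 cells, so this sum did not set the HKC-8 cells apart from the liver line. In normoxia KRT18 made up most of it, at 1130 CPM in HKC-8 and 906 CPM in HepG2 cells. Single markers differed in both directions. PAX8 held 165 CPM in HKC-8 and 9.43 CPM in HepG2 cells, while ANPEP held 2.82 and 263 CPM. Of 7 renal carcinoma markers, 6 lay above it in RCC4, 5 in HKC-8 and 7 in HepG2 cells. Of 12 well-known hypoxia-induced genes, all 12 tested in HKC-8, all 10 tested in RCC4 and all 12 tested in HepG2 cells rose in hypoxia.

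The 7 genes have unlike roles. GPR56 (ADGRG1) is an adhesion G protein-coupled receptor that binds extracellular matrix, and S1PR1 is a G protein-coupled receptor for the lipid sphingosine-1-phosphate, best known in blood vessels and lymphocytes. SLC34A2 is a sodium-dependent phosphate transporter of epithelial surfaces, and CILP is a secreted matrix protein of cartilage. KLHL4 belongs to the kelch-like proteins, many of which hand substrates to cullin ubiquitin ligases. RNF145 is a ubiquitin ligase of the endoplasmic reticulum with a part in sterol control, and ALDH1B1 is a mitochondrial aldehyde dehydrogenase. In hypoxia HIF is stabilised and raises transcription of many genes, whereas genes that fall in hypoxia are a mixed group for which direct binding of HIF is less typical.

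On the GRCh37 assembly, to which the reads were aligned, GPR56 spans chr16:57644564-57699492 on the plus strand, with 14 exons in its main GENCODE transcript. SLC34A2 spans chr4:25649633-25680370 on the plus strand with 13 exons, and CILP chr15:65487098-65503811 on the minus strand with 9 exons. S1PR1 lies at chr1:101702421-101709269 on the plus strand with 2 exons, of which 1 is coding, and KLHL4 at chrX:86772412-86925050 on the plus strand with 11 exons. RNF145 spans chr5:158584417-158637061 on the minus strand with 11 exons, and ALDH1B1 chr9:38392699-38398658 on the plus strand with 2 exons, of which 1 is coding. A long noncoding RNA is annotated on the opposite strand within GPR56 and another within RNF145. Whether reads of these were counted with the genes is not known, since no strand setting is given for the counting.

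The start regions of the genes were searched for the HIF core motifs ACGTG and GCGTG on both strands. RefSeq (GRCh38.p14) lists 14 start windows for the 7 genes, each of 300 bases, of which 250 lie before the start, and all 14 upstream stretches match GRCh37 at 1 place. Either motif was found in 5 of the 14 windows, which belong to SLC34A2, S1PR1, RNF145 and ALDH1B1, and in 48.4% of all 35116 windows. No match was found in the windows of GPR56, CILP and KLHL4. For the 4 windows whose bases before the start lie outside the annotated exons of their gene, these 250 bases are printed 5′ to 3′ in lower case with any motif in capitals, since they belong to genes with 3 patterns of response across the lines. SLC34A2 and CILP were all but limited to RCC4 cells, RNF145 fell in HKC-8 cells and not in the others, and ALDH1B1 was counted in every line. They lie at chr4:25657836-25658085 on the plus strand, chr15:65503812-65504061 on the minus strand, chr5:158637062-158637311 on the minus strand and chr9:38392449-38392698 on the plus strand of GRCh37.
SLC34A2, second start: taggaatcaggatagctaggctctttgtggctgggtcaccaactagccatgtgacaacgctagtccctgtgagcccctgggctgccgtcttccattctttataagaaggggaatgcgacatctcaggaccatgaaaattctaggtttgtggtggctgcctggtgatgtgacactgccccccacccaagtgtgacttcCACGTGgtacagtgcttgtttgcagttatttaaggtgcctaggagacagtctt
CILP: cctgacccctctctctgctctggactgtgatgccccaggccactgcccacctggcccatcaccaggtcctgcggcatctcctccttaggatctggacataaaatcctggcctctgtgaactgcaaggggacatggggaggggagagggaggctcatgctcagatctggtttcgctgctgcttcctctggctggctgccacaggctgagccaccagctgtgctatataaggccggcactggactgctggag
RNF145, outermost start: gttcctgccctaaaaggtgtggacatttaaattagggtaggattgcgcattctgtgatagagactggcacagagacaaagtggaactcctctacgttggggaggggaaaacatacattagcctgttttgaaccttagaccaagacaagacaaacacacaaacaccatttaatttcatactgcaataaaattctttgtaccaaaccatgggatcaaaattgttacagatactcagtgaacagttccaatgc
ALDH1B1: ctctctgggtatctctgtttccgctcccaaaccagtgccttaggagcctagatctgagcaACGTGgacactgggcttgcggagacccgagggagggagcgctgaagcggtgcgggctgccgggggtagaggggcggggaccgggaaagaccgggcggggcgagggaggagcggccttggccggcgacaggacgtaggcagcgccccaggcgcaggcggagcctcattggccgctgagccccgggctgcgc
The capitals in SLC34A2 are 2 overlapping matches of ACGTG, 1 on each strand, which form the palindrome CACGTG, a sequence found in 7.3% of all windows. The capitals in ALDH1B1 are 1 ACGTG that starts 190 bases before the start. A different start window of RNF145 held 3 matches, of which 2 overlap in CACGTG. A motif match describes the letters of the window only.

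All 7 genes lay within the 5 lowest places of their line. In RCC4 cells GPR56 had a metric of -297, SLC34A2 of -131 and CILP of -107, which were the 3 lowest of 12811 ranked genes. In HKC-8 cells S1PR1 (-29.2), RNF145 (-19.8) and KLHL4 (-15.6) held ranks 2, 3 and 5 of 13536. ALDH1B1 (-37.0) held rank 4 of 13623 in HepG2 cells. The other low places were held by HIF1A and SLC25A12 in HKC-8, by SLC2A2 and MAF in RCC4, and by GPAM, NUPR1, SULT2A1 and AKR1C2 in HepG2 cells. The sixth places, just outside, had a metric of -15.3 for SEMA3A in HKC-8, -84.0 for DHRS9 in RCC4 and -34.6 for KLF15 in HepG2 cells, so KLHL4 stood close to its neighbour. Ordered by fold change alone among the genes that fell, GPR56 was at place 79, SLC34A2 at 143 and CILP at 8 of 3105 in RCC4 cells. S1PR1 was at place 7, KLHL4 at 8 and RNF145 at 31 of 1235 in HKC-8 cells, and ALDH1B1 at 89 of 2621 in HepG2 cells. In the line that chose them, GPR56, CILP, S1PR1, KLHL4 and RNF145 fell by at least 2-fold, as did 1.01% of all genes in RCC4, 0.229% in HKC-8 and 0.558% in HepG2 cells with a call, and SLC34A2 and ALDH1B1 fell by slightly less.

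**Figure D1:**
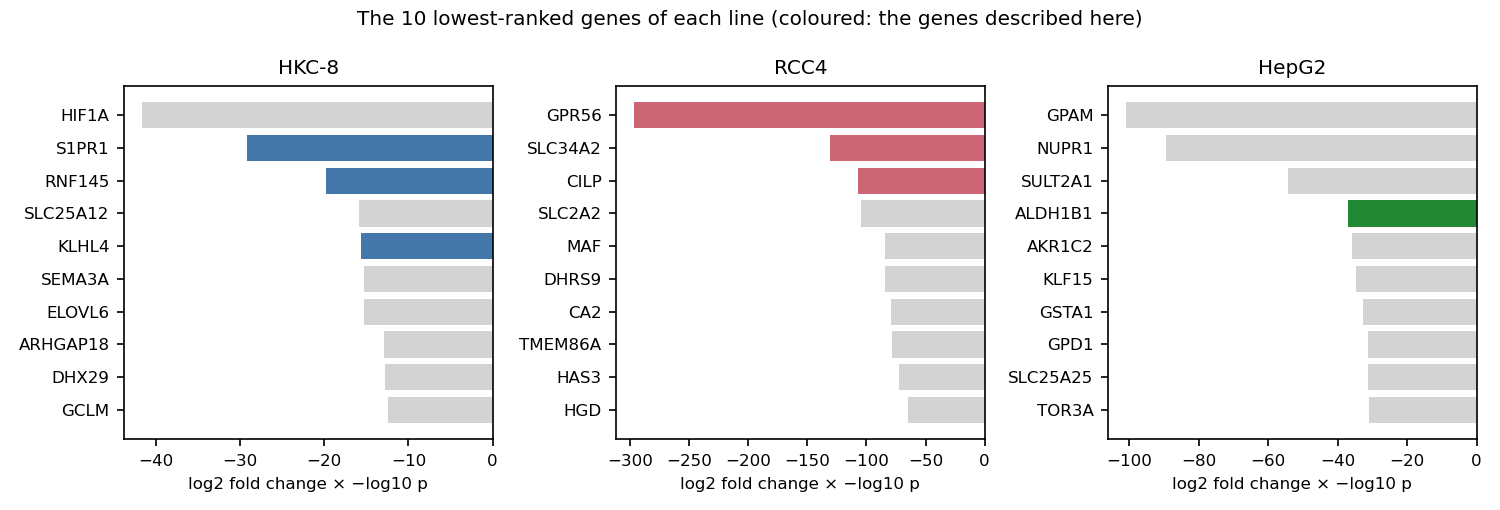
Ranking metric (log2 fold change multiplied by -log10 p, horizontal axis) of the 10 lowest-ranked genes in HKC-8, RCC4 and HepG2 cells, with the 7 genes described here in colour. GPR56 stands at -297 in RCC4 cells, and the scales differ between the panels.

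Across the lines that did not choose them, the genes fell in 4 of the 9 cases that could be tested and rose in 2. There are 14 pairs of a gene and another line, and in 5 of them (SLC34A2 and CILP in HKC-8 and HepG2 cells, S1PR1 in HepG2 cells) the counts were too low for the test. KLHL4 fell in both other lines, GPR56 fell in HepG2 cells and ALDH1B1 fell in RCC4 cells. RNF145 rose slightly in both other lines. Calls rest on edgeR's quasi-likelihood test with a Benjamini-Hochberg adjusted p under 0.05 over all genes tested. By that rule 9.12% of the genes tested in HKC-8 (1235), 24.2% of those in RCC4 (3105) and 19.2% of those in HepG2 cells (2621) fell, and 11.2%, 25.9% and 19.9% rose. Of the genes chosen elsewhere, 2 of 4 tested fell in RCC4 and 2 of 3 in HepG2 cells, none of them by 2-fold. Neither of the 2 tested in HKC-8 cells fell in the main edgeR fit or by DESeq2. ALDH1B1 alone had an unadjusted p under 0.05 by edgeR (0.0393). When HKC-8 samples were blocked by replicate number, 2919 genes fell there, ALDH1B1 among them. With all 18 samples in 1 fit 2510 genes fell there, again with ALDH1B1 among them. Without TMM scaling, on library size alone, 67.0% of calls in RCC4 and 67.4% in HepG2 cells were falls, against 48.3% and 49.2% with it, and neither rise of RNF145 passed the test.

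**Figure D2:**
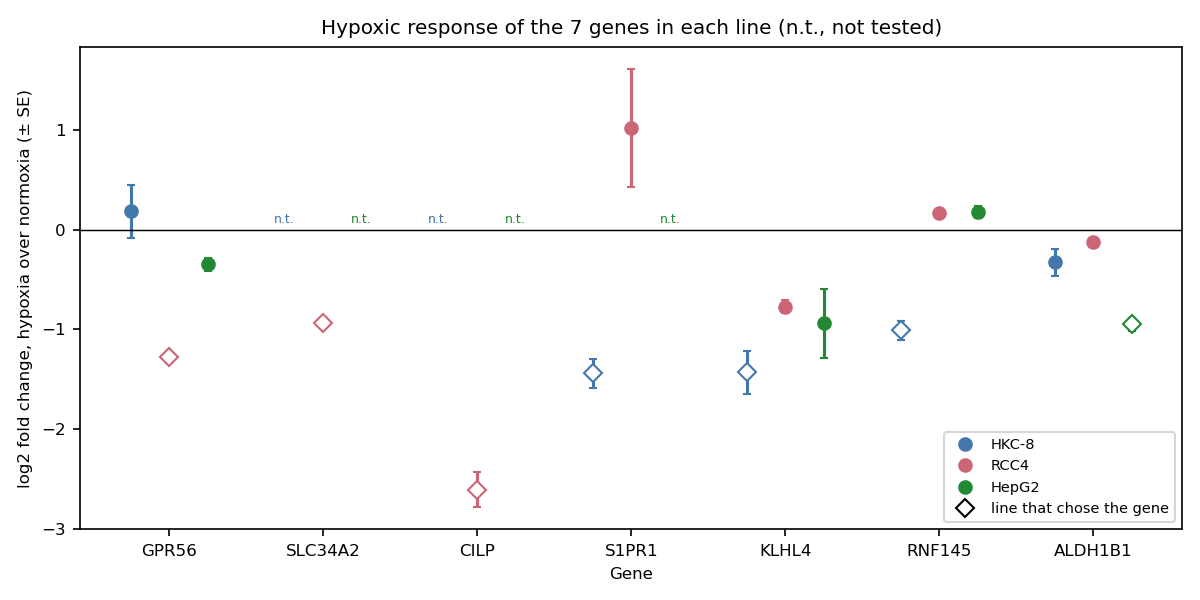
Log2 fold change in hypoxia over normoxia with its SE (vertical axis) for each gene (horizontal axis) in HKC-8, RCC4 and HepG2 cells, with open diamonds for the line that chose the gene and n.t. for lines where the counts were too low for the test. KLHL4 lies below 0 in all 3 lines, and RNF145 lies at -1.01 in HKC-8 and near 0.17 in the others.

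GPR56 was counted in all 3 lines at unlike levels. In RCC4 cells, where it was chosen, the normoxic samples held 611, 627 and 583 CPM and the hypoxic samples 261, 237 and 251 CPM. The log2 fold change was -1.28 (SE 0.037), and every hypoxic sample lay below every normoxic one, as for 28.3% of all genes tested there. HepG2 cells held 49.2, 52.6 and 53.7 CPM in normoxia and 41.8, 40.0 and 40.4 CPM in hypoxia, again without overlap (25% of all genes). This fall was small, at -0.35 on the log2 scale (SE 0.065, edgeR adjusted p = 0.000909), and it did not pass the test when all 18 samples shared 1 estimate of spread (adjusted p = 0.167). HKC-8 cells held 18.2, 25.9 and 30.2 CPM in normoxia and 17.5, 29.4 and 37.3 CPM in hypoxia. Here the groups overlapped, and the log2 fold change of 0.18 (SE 0.264, adjusted p = 0.656 by edgeR) was under its error and turned to -0.0775 without hypoxic replicate 3.

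The order of the normoxic levels of GPR56 was therefore RCC4, HepG2 and HKC-8. RCC4 cells held 11.7 times the level of HepG2 cells and 24.5 times that of HKC-8 cells in normoxia, and 6.13 and 8.90 times in hypoxia. Between the lines that did not choose the gene, the normoxic level was 2.13-fold higher in HepG2 than in HKC-8 cells (log2 difference 1.09, SE 0.152, edgeR adjusted p = 2.83e-05), a kind of call made for 82.2% of all genes. Their responses differed by -0.53 on the log2 scale (SE 0.294), which did not pass the test (edgeR adjusted p = 0.296, where 9.3% of all genes did). With the replicate numbers as a block the difference was -0.50 and passed it (adjusted p = 0.00559), as it did without hypoxic HKC-8 replicate 1 (-0.78, adjusted p = 0.0471). Of the other adhesion G protein-coupled receptors, 4 of 14 tested fell in RCC4 cells, against 24.2% of all genes, and 4 rose, against 25.9%. In HepG2 cells 5 of 16 rose, against 19.9%, and in HKC-8 cells 4 of 14, against 11.2%. None fell in these last 2 lines, where 19.2% and 9.12% of all genes fell. The median log2 fold change of these receptors was -0.07 for RCC4, 0.41 for HepG2 and 0.34 for HKC-8, and on library size alone 4 fell and 1 rose in RCC4 cells. GPR133 rose in HepG2 cells from 0.500 to 2.80 CPM (log2 fold change 2.47) and GPR124 in HKC-8 cells from 1.59 to 3.36 CPM (1.08), while GPR124 fell in RCC4 cells from 1.34 to 0.811 CPM (-0.71, SE 0.275, edgeR adjusted p = 0.0362).

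SLC34A2 was counted almost only in RCC4 cells. Their normoxic samples held 396, 399 and 390 CPM and the hypoxic samples 217, 198 and 202 CPM, with means of 395 ± 4.90 and 206 ± 9.91 CPM (SD, n = 3). The log2 fold change was -0.94 (SE 0.036), so that the level remained high in hypoxia. In HKC-8 cells 0 counts were found in all 6 samples, and against a floor of 3 counts per library (0.0353 CPM) the normoxic level of RCC4 cells was at least 11190-fold higher. HepG2 cells held 3, 3 and 2 counts in normoxia and 5, 0 and 0 counts in hypoxia, which is at or near that floor. A fall in these lines was not detectable at this depth. Of the other phosphate transporters, SLC34A1, the main phosphate transporter of the proximal tubule, fell in RCC4 cells from 0.987 to 0.421 CPM (log2 fold change -1.21, SE 0.386, edgeR adjusted p = 0.0118). XPR1, a phosphate exporter, fell there by 0.16 on the log2 scale (SE 0.037, edgeR adjusted p = 0.000916), and is named after its value was seen. SLC34A3 rose in HepG2 cells from 1.41 to 3.37 CPM (log2 fold change 1.26, SE 0.184), and none of the 3 transporters tested in HKC-8 cells changed past the threshold.

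CILP was low even in RCC4 cells. Normoxic samples held 7.15, 6.64 and 6.88 CPM (294 to 362 counts) and hypoxic samples 1.44, 1.22 and 0.704 CPM (34 to 70 counts). Its log2 fold change of -2.61 (SE 0.176) was the largest of the 7 genes. In HKC-8 cells the counts were 2, 8 and 8 in normoxia and 17, 3 and 2 in hypoxia, with no order between the groups. HepG2 cells held 2 counts in all 3 normoxic samples together and 0 in the hypoxic ones. The normoxic level of RCC4 cells was 98.2 times that of HKC-8 cells (95% counting interval 61.6 to 165.7) and 456 times that of HepG2 cells (124.3 to 3723), where the exact intervals cover counting error only. Of 17 other cartilage matrix genes only 1 could be tested in RCC4 cells, and it rose. In HKC-8 cells 1 of 8 rose, against 11.2% of all genes, and in HepG2 cells 2 of 9, against 19.9%. None fell in these 2 lines, where 9.12% and 19.2% of all genes fell.

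S1PR1 was a gene of HKC-8 cells. Normoxic samples held 15.0, 11.6 and 13.8 CPM and hypoxic samples 5.40, 5.16 and 4.29 CPM, without overlap (19.5% of all genes), and the log2 fold change was -1.44 (SE 0.146). RCC4 cells held 13, 8 and 16 counts in normoxia and 7, 12 and 58 counts in hypoxia, so that a single sample stood above the rest. The log2 fold change of 1.02 (SE 0.594, edgeR adjusted p = 0.162) did not pass the test and rested on that sample, since it was -0.42 without hypoxic replicate 3 and 1.46 without hypoxic replicate 1 (adjusted p = 0.0294). HepG2 cells held 1 count in normoxia and 2 in hypoxia over 3 samples each. In normoxia HKC-8 cells held 51.2 times the level of RCC4 cells (95% counting interval 38.0 to 74.6) and 1784 times that of HepG2 cells (316.5 to 69710).

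Other genes of sphingosine-1-phosphate moved in both directions. SPNS2, an exporter of this lipid, rose in HKC-8 cells from 1.62 to 8.35 CPM (log2 fold change 2.37, SE 0.210, edgeR adjusted p = 0.000165), in RCC4 cells, where its level was highest, from 63.8 to 101 CPM (0.67, SE 0.044, adjusted p = 1.23e-11) and in HepG2 cells from 0.266 to 0.585 CPM (1.11, SE 0.388, adjusted p = 0.0366). Of the 12 other genes of the list tested in HKC-8 cells, 3 rose, against 11.2% of all genes, and none fell, against 9.12%. In RCC4 cells 4 of 11 fell, against 24.2%, and 4 rose, against 25.9%. In HepG2 cells 3 of 9 fell, against 19.2%, and 2 rose, against 19.9%. On library size alone 6 fell and 1 rose in RCC4 cells, and 6 fell and 2 rose in HepG2 cells. The medians of the list without S1PR1 were 0.082 for HKC-8, -0.054 for RCC4 and -0.242 for HepG2 on the log2 scale.

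**Figure D3:**
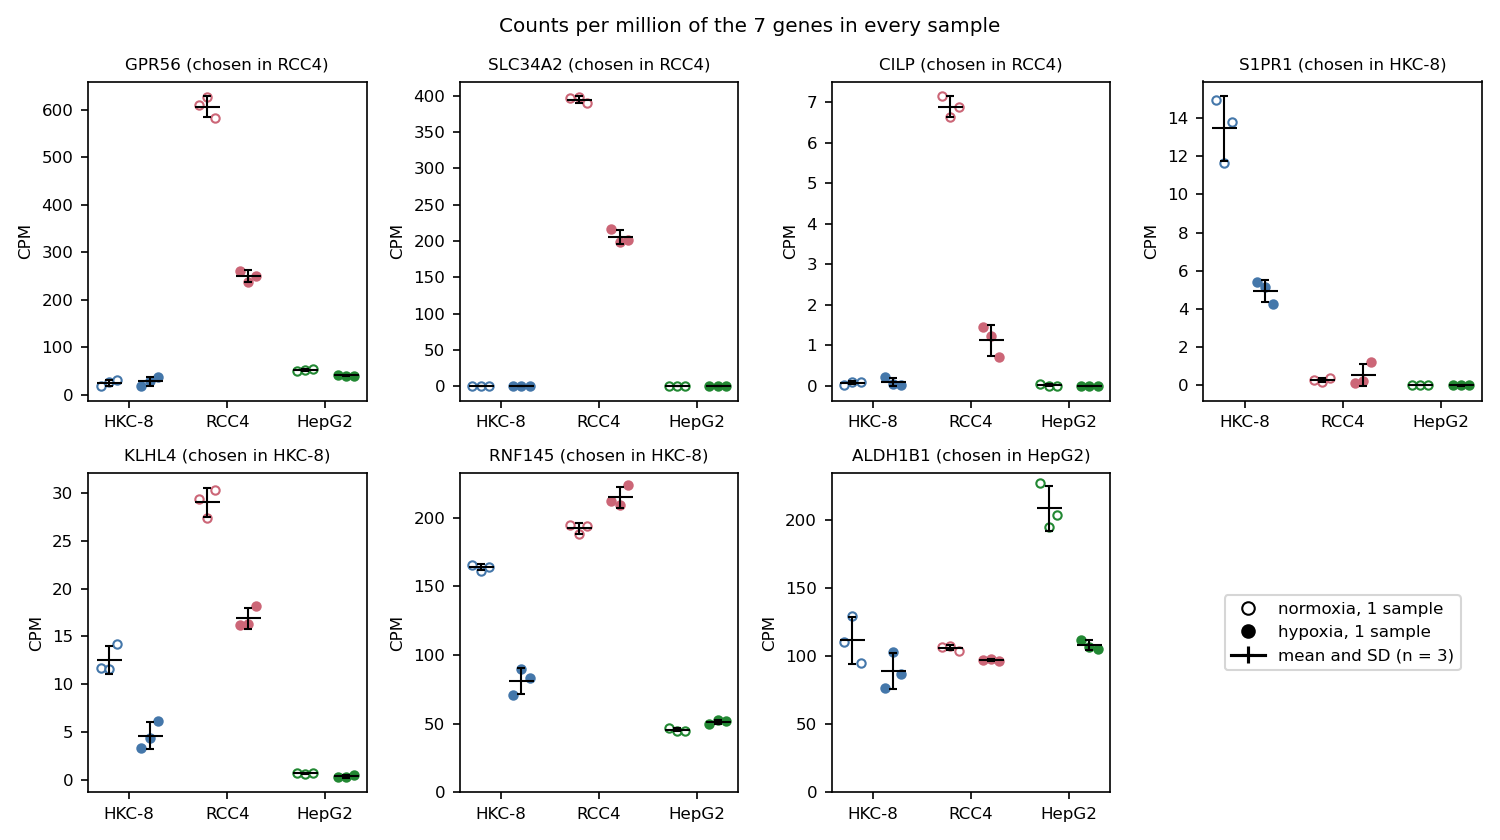
CPM (vertical axis, TMM scaling, each panel with its own scale) of the 7 genes in every normoxic (open) and hypoxic (filled) sample of HKC-8, RCC4 and HepG2 cells, with the mean and SD of 3 samples. SLC34A2 and CILP lie near 0 outside RCC4 cells, and KLHL4 and RNF145 have their highest normoxic level in RCC4 cells although HKC-8 cells chose them.

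KLHL4 fell in every line. HKC-8 cells held 11.7, 11.6 and 14.2 CPM in normoxia and 3.34, 4.37 and 6.20 CPM in hypoxia, a log2 fold change of -1.43 (SE 0.216). RCC4 cells, which did not choose it, held 29.4, 27.4 and 30.4 CPM in normoxia and 16.2, 16.3 and 18.2 CPM in hypoxia. The groups did not overlap, which was so for 28.3% of all genes tested there in this direction, and the log2 fold change was -0.77 (SE 0.065, edgeR adjusted p = 1.04e-09). This call held in all 13 alternatives. HepG2 cells held 32, 27 and 31 counts in normoxia and 12, 12 and 21 counts in hypoxia, or 0.690 ± 0.0744 and 0.363 ± 0.156 CPM (SD, n = 3). The groups did not overlap there either (25% of all genes), but the log2 fold change of -0.94 (SE 0.350, edgeR adjusted p = 0.0477) passed the test narrowly and missed it in 7 of 12 alternatives, with an adjusted p of 0.0919 by DESeq2. Leaving out any HepG2 sample but hypoxic replicate 3 gave an adjusted p between 0.0709 and 0.184.

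The normoxic level of KLHL4 was highest in RCC4 cells, at 2.32 times that of HKC-8 cells. HepG2 cells held 42.7-fold less than RCC4 cells in normoxia (log2 difference -5.42, SE 0.124, edgeR adjusted p = 5.81e-14, a call made for 87.1% of all genes). Their responses differed by -0.17 (SE 0.274, edgeR adjusted p = 0.742, where 22.6% of all genes passed), and this difference was 0.034 without hypoxic HepG2 replicate 2. Of the other kelch-like genes, 1 of 25 fell in HKC-8 cells, against 9.12% of all genes, and 4 rose, against 11.2%. In RCC4 cells 7 of 24 fell, against 24.2%, and 2 rose, against 25.9%. In HepG2 cells 5 of 25 fell, against 19.2%, and 3 rose, against 19.9%. On library size alone 10 fell in RCC4 and 12 in HepG2 cells. Medians of these genes were 0.02 for HKC-8, -0.049 for RCC4 and -0.139 for HepG2. KLHL24 rose in HKC-8 cells from 13.9 to 30.7 CPM, KLHL30 from 0.997 to 2.59 and KLHL33 from 0.601 to 1.47 CPM. KLHL3, which binds WNK kinases in the kidney, rose in HepG2 cells from 0.0929 to 0.582 CPM (log2 fold change 2.62, SE 0.458). Its normoxic level there lay near the floor of 3 counts (0.0689 CPM), so the size of this rise is uncertain.

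RNF145 fell in HKC-8 cells and was higher in hypoxia in the others. HKC-8 cells held 166, 162 and 164 CPM in normoxia and 70.8, 89.7 and 83.3 CPM in hypoxia, a log2 fold change of -1.01 (SE 0.094). In RCC4 cells the normoxic samples held 195, 188 and 194 CPM and the hypoxic samples 212, 209 and 224 CPM. Every hypoxic sample lay above every normoxic one. The share of this pattern over all genes was not counted. The reverse order held for 28.3% of all genes tested in RCC4 and 25% in HepG2 cells. In RCC4 cells the log2 fold change of RNF145 was 0.17 (SE 0.036, edgeR adjusted p = 0.000456). HepG2 cells held 46.8, 44.9 and 44.9 CPM in normoxia and 49.97, 52.5 and 52.24 CPM in hypoxia, also without overlap, with a log2 fold change of 0.18 (SE 0.061, edgeR adjusted p = 0.0324). These small rises depended on the scaling and the fit. With median-of-ratios factors both passed (edgeR adjusted p = 0.000519 in RCC4 and 0.0301 in HepG2 cells). On library size alone they were 0.083 (adjusted p = 0.051) and 0.086 (adjusted p = 0.277), with all 18 samples in 1 fit the RCC4 call was lost too (adjusted p = 0.0939), and the HepG2 call was lost in 8 of 13 alternatives. Among these were all fits that left out 1 HepG2 sample except that without normoxic replicate 2, with adjusted p between 0.051 and 0.116.

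The level of RNF145 in normoxia was therefore highest in a line where it did not fall. RCC4 cells held 1.17 times the level of HKC-8 cells in normoxia and 2.65 times in hypoxia. Between RCC4 and HepG2 cells the normoxic level differed 4.29-fold (log2 difference -2.10, SE 0.055, edgeR adjusted p = 2.3e-13), while their responses differed by 0.022 (SE 0.066, edgeR adjusted p = 0.893). Among genes that work beside RNF145, INSIG2, which holds the sterol sensor SCAP in the endoplasmic reticulum, rose in every line. Its log2 fold change was 2.02 (SE 0.152) for HKC-8, 1.60 (SE 0.051) for RCC4 and 1.54 (SE 0.075) for HepG2. INSIG1 rose in HKC-8 cells from 88.0 to 207 CPM (1.24, SE 0.198). Of the 13 genes of this list other than RNF145, 1 fell in HKC-8 cells, against 9.12% of all genes, and 2 rose, against 11.2%. In RCC4 cells 7 fell, against 24.2%, and 3 rose, against 25.9%. In HepG2 cells 3 fell, against 19.2%, and 2 rose, against 19.9%. The median log2 fold change of the 13 genes was 0.074, -0.172 and -0.041 in these lines. On library size alone 10 fell in RCC4 and 4 in HepG2 cells.

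ALDH1B1 was counted at like levels in every hypoxic group. HepG2 cells held 227, 195 and 204 CPM in normoxia and 112, 107 and 105 CPM in hypoxia, a log2 fold change of -0.95 (SE 0.065). RCC4 cells held 107, 108 and 104 CPM in normoxia and 97.2, 98.4 and 96.5 CPM in hypoxia. The groups did not overlap (28.3% of all genes) and the fall was slight, at -0.12 (SE 0.037, edgeR adjusted p = 0.00942), and with all 18 samples in 1 fit it missed the threshold (adjusted p = 0.409). HKC-8 cells held 110, 130 and 95.4 CPM in normoxia and 76.7, 103 and 87.4 CPM in hypoxia, with overlap. The log2 fold change of -0.33 (SE 0.136, edgeR adjusted p = 0.12) did not pass the test. Under a block for the replicate number, which sets each hypoxic sample against the normoxic one of the same number, it was -0.32. It then passed (edgeR adjusted p = 0.00556). It also passed with all 18 samples in 1 fit (-0.33, edgeR adjusted p = 0.0146). Leaving out normoxic replicate 3 (-0.43, adjusted p = 0.0408) or hypoxic replicate 2 (-0.44, adjusted p = 0.0416) gave a call as well.

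In normoxia HepG2 cells held 1.97 times the ALDH1B1 level of RCC4 and 1.87 times that of HKC-8 cells, and in hypoxia 1.11 and 1.22 times. The normoxic levels of RCC4 and HKC-8 cells did not differ beyond their spread (log2 difference -0.064, SE 0.094, edgeR adjusted p = 0.534, where 85% of all genes did). That difference was 0.045 without normoxic HKC-8 replicate 2 and -0.165 (adjusted p = 0.0249) without replicate 3. Their responses differed by 0.18 (SE 0.146, edgeR adjusted p = 0.447, where 15.2% of all genes passed). Of the other aldehyde dehydrogenases, 8 of 13 fell in RCC4 cells, against 24.2% of all genes, and 3 rose, against 25.9%. In HepG2 cells 6 of 15 fell, against 19.2%, and 3 rose, against 19.9%. In HKC-8 cells 2 of 13 fell, against 9.12%, and 2 rose, against 11.2%. In HKC-8 cells ALDH1L2, a mitochondrial enzyme of folate metabolism, rose from 109 to 264 CPM and ALDH3B1 from 17.0 to 35.3 CPM. The median log2 fold change of the list without ALDH1B1 was -0.205 for RCC4, -0.024 for HepG2 and 0.075 for HKC-8, against -0.0018, -0.0044 and 0.0036 for all genes. On library size alone 9 fell and 1 rose in RCC4 cells, and 7 fell and 2 rose in HepG2 cells.

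**Figure D4:**
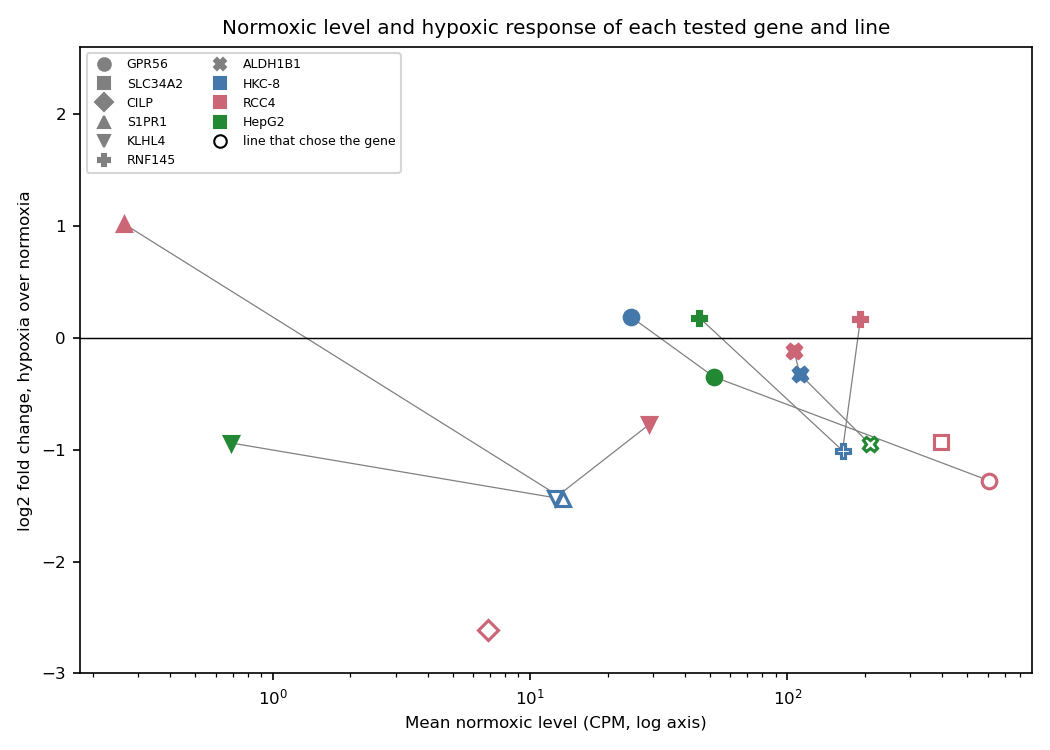
Mean normoxic level (CPM, horizontal log axis) against the log2 fold change in hypoxia (vertical axis) for each gene and line that could be tested, with open symbols for the line that chose the gene and grey lines joining the lines of 1 gene. The open symbols show the falls on which the genes were chosen, so no relation of level and response can be read from them, and KLHL4 and RNF145 have their highest normoxic level in RCC4 cells, which did not choose them.

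Set side by side, 5 of the 7 genes (GPR56, SLC34A2, CILP, S1PR1 and ALDH1B1) had their highest normoxic level in the line that chose them, and KLHL4 and RNF145 did not. Since the choice used those samples, this is a description. Of the 4 genes whose normoxic level could be tested between the lines that did not choose them, 3 differed, where 82.2% to 87.1% of all genes did. The response differed in none of the 4 by edgeR with an adjusted p under 0.05, by DESeq2, or at an unadjusted p under 0.05 by edgeR, and in 1, GPR56, with the replicate block, where 9.3% to 22.6% of all genes passed without it. A lower CPM in these bulk samples can come from fewer cells with the RNA or from less RNA per cell, which cannot be told apart.

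The 50 lowest-ranked genes of each line set these genes among their neighbours. Of the 50 lowest of HKC-8 cells, 41 could be tested in RCC4 cells and 23 of them fell (56.1%, against 24.2% of all genes), and 24 of 43 fell in HepG2 cells (55.8%, against 19.2%). For HepG2 cells, 26 of 36 fell in RCC4 cells (72.2%) and 13 of 36 in HKC-8 cells (36.1%, against 9.12%). Of the 50 lowest of RCC4 cells, 17 of 38 fell in HepG2 (44.7%) and 6 of 36 in HKC-8 cells (16.7%). With the replicate block 14 of these fell in HKC-8 cells, and 2 did without normoxic HKC-8 replicate 1 and 3 without hypoxic HKC-8 replicate 1. For HepG2 genes in HKC-8 cells the count was 4 without normoxic replicate 1 and 8 without hypoxic replicate 1 or 3. These shares carry no test.

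Of these 109 falls in another line, 12 were of at least 2-fold, among them 4 of the 26 HepG2 genes in RCC4 cells and 3 of the 6 RCC4 genes in HKC-8 cells. Of all genes, 1.01% fell by as much with a call in RCC4, 0.229% in HKC-8 and 0.558% in HepG2 cells. PIK3R3, SGK2 and SLC2A2, among those 4, were also among the 50 lowest of RCC4 cells. A gene low in a pair of lines is counted from both, as was the fall of SGK2 in HKC-8 cells. The 50 lowest-ranked genes had their highest normoxic level in the line that ranked them in 26 cases for HKC-8 (52%), 37 for RCC4 (74%) and 33 for HepG2 (66%), against 37.7%, 37.7% and 38.9% of all ranked genes. Since the ranking used those normoxic samples, this excess is a description and was not tested. Where the other line held at least 0.5 times the normoxic level of the ranking line, 19 of 29 HKC-8 genes fell in RCC4 cells, and 4 of 12 did where it held less. For RCC4 genes in HepG2 cells these counts were 11 of 16 and 6 of 22, and in HKC-8 cells 2 of 12 and 4 of 24. For HKC-8 genes in HepG2 cells they were 17 of 27 and 7 of 16. For HepG2 genes they were 17 of 22 and 9 of 14 in RCC4 and 10 of 23 and 3 of 13 in HKC-8 cells. The median log2 fold changes did not all show this split. For HepG2 genes in RCC4 cells the median was -0.293 where the level was at least 0.5 times and -0.646 where it was less, and in HKC-8 cells it was -0.30 and -0.29. Genes with lower counts also pass the test less readily. The split used the normoxic samples of both lines, which also entered the ranking and the fold changes counted here. Shares of all genes at the same split were not counted, so these counts are a description and no relation of level and response can be read from them.

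**Figure D5:**
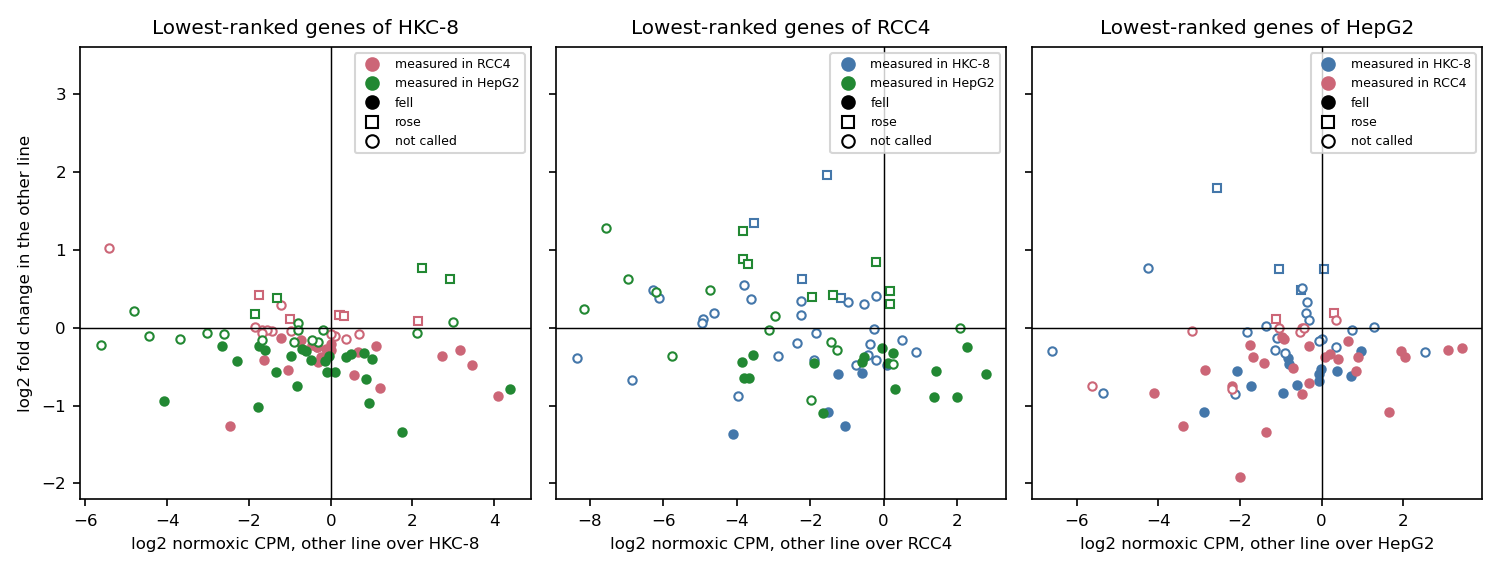
For the 50 lowest-ranked genes of each line, the log2 ratio of the normoxic CPM in another line over the ranking line (horizontal axis) against the log2 fold change in that other line (vertical axis), with filled circles for genes that fell, open squares for genes that rose and open circles for genes not called. Falls outnumber rises in every panel, and 26 of 36 HepG2 genes fell in RCC4 cells.

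No gene was among the 50 lowest of all 3 lines, and 7 were among the lowest of a pair of lines, named here after their values were seen. These were GCNT3 and GSR in HKC-8 and RCC4, GPAM and USP2 in HKC-8 and HepG2, and PIK3R3, SGK2 and SLC2A2 in RCC4 and HepG2 cells. None of the 7 genes described here was among them, and the nearest was KLHL4, at rank 65 in RCC4 cells. Of these 7 genes, GCNT3, GSR, USP2 and SGK2 were called as fallen in all 3 lines. GPAM was not called in RCC4 cells (edgeR adjusted p = 0.618) and PIK3R3 was not in HKC-8 cells (adjusted p = 0.0991). SLC2A2 could not be tested in HKC-8 cells. In HKC-8, RCC4 and HepG2 cells the log2 fold change of GCNT3 was -1.37, -0.88 and -0.79, and that of USP2 was -0.84, -1.26 and -0.97. For SGK2 it was -1.08, -1.34 and -0.89, and for GSR, glutathione reductase, -0.58, -0.61 and -0.33. The falls in the lines that ranked a gene are a description.

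The genes most like each of the 7 were taken over the 18 samples. By Pearson's r of the log2 CPM over 15307 genes, GPR56 was closest to RNF121 (0.9872), CXCL14 and FAT2, and SLC34A2 to RPSAP58 (0.9960) and PKHD1. CILP was closest to UNG (0.9789), PSG3 and ZYG11B, and S1PR1 to RRN3P1 (0.9821), SLC25A32 and MELK. KLHL4 was closest to CDC23 (0.9897), AKIP1 and MCU, RNF145 to EIF4ENIF1 (0.9785), DCDC2 and SEMA3A, and ALDH1B1 to SCMH1 (0.9269), PTCHD3P1 and ICT1. The 18 points fall into 3 lines, so a gene with the same order of lines reaches a high r, and the samples share libraries and scaling.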

How the data were processed

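The authors trimmed adapters with Trim Galore 0.3.3, aligned reads to GRCh37 with TopHat2 2.0.8b and Bowtie 1.0.0, removed fragments that did not map uniquely (SAMtools 0.1.19) and counted reads on UCSC genes with HTSeq 0.5.4p3. They deposited raw counts per gene and sample, without normalization. Genes with near-identical copies lose reads by the unique mapping.

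From these counts, each line was fitted apart with edgeR 4.0.16 in R 4.3.3 (filterByExpr, TMM, glmQLFit and glmQLFTest), with Benjamini-Hochberg adjustment over all genes tested. Differences between lines were fitted on the normoxic samples of 2 lines, or as an interaction of line and oxygen over 12 samples, and were tested for a gene only between the 2 lines that did not choose it. CPM were scaled by TMM over all 18 samples. The SE given is |log2 fold change| / sqrt(F). Log2 CPM for the correlations had a prior count of 2. The ranking used unshrunk fold changes and p-values of DESeq2 1.42.0. The floor of 3 counts in a sample is 0.0306 to 0.0733 CPM, and 95% intervals cover counting error. Scripts were tested on simulated data. Figures were drawn with Python 3.11.15 and matplotlib 3.10.9.

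The genes and gene lists were chosen with earlier results of these data known. Named are the 7 genes, the genes at the 6 lowest places, the 3 genes most like each, and list genes called with a log2 change of at least 1 in size, at most 4 a list. A gene that this rule names is not reported here. Replicate numbers come from the labels. Same-numbered normoxic and hypoxic samples were compared by their deviations from the group means. These correlated at 0.109, 0.453 and 0.447 in HKC-8, at -0.0103 to 0.0333 in RCC4 and at 0.0617 to 0.184 in HepG2 cells. Samples of the same number were each other's best match for HKC-8 replicates 2 and 3, RCC4 replicate 2 and every HepG2 replicate. Pairing by number is therefore uncertain, and the main fits used no block. No 2 replicates agreed within counting noise (chi-square per degree of freedom 4.57 to 91.5). Alternatives were DESeq2, median-of-ratios factors, other filters, all 18 samples in 1 fit, a replicate block, 20 or 100 lowest genes, each sample left out and, added after seeing the data, library size alone.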

Additional observations from a re-analysis of the deposited data

Results flagged for a closer look

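The level of RNF145 was lower in hypoxia in HKC-8 cells and slightly higher in the other lines. Every hypoxic sample lay below every normoxic one in HKC-8 cells, as for 19.5% of all genes tested there, and above it in RCC4 and in HepG2 cells. The share of all genes that lay above was not counted, and 28.3% lay below in RCC4 and 25% in HepG2 cells. Its log2 fold change was higher by 1.17 in RCC4 than in HKC-8 cells and by 1.19 in HepG2 than in HKC-8 cells. These differences of RNF145 were not tested, because the gene was chosen for its fall in HKC-8 cells. The rises in RCC4 and HepG2 cells were small and depended on the scaling and the fit. They passed with median-of-ratios factors (edgeR adjusted p = 0.000519 and 0.0301). They missed the threshold on library size alone (edgeR adjusted p = 0.051 and 0.277) and with all 18 samples in 1 fit (adjusted p = 0.0939 and 0.0562), and the HepG2 rise missed it in 8 of 13 alternatives.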

How the results depend on the processing

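The count of genes that fell in HKC-8 cells, 1235, was 2510 with all 18 samples in 1 fit, 2919 with the replicate block and 326 to 1489 with 1 sample left out, namely 326 and 522 without normoxic replicates 1 and 2 and 342 and 675 without hypoxic replicates 1 and 3. In RCC4 cells, against 3105, it was 1419 with all 18 samples, 4651 on library size alone and 2694 to 2894 with 1 sample left out. In HepG2 cells, against 2621, it was 4081 on library size alone and 1890 to 2918 with 1 left out. In RCC4 and HepG2 cells the block changed no call on the hypoxic response of the 7 genes. Same-numbered samples correlated weakly there, although in HepG2 cells each was the best match of its number. Of the 7 genes, the cases that fell in other lines numbered 3 to 5 over all alternatives against 4, and the cases that rose 1 to 3 with 1 sample left out, 1 without a filter and 0 on library size alone and with all 18 samples, against 2. Genes whose normoxic level differed were 5 without a filter and with all 18 samples, where more genes were tested, and 3 to 4 with 1 sample left out. Genes whose response differed were 1 with the replicate block and 0 to 1 with 1 sample left out. Falls of lowest-ranked genes in other lines numbered 40 for the 20 lowest and 240 for the 100 lowest, against 109 for 50, and 96 to 111 with 1 sample left out. Signs turned for GPR56 in HKC-8 cells (-0.0775 to 0.434, below 0 without hypoxic replicate 3), S1PR1 in RCC4 cells (-0.418 to 1.46, below 0 without hypoxic replicate 3), the KLHL4 response of HepG2 minus RCC4 (-0.546 to 0.034, above 0 without hypoxic HepG2 replicate 2) and the ALDH1B1 level of RCC4 minus HKC-8 (-0.165 to 0.045, above 0 without normoxic HKC-8 replicate 2), none of which was called with all samples. The causes were not tested.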
